A study of Mus musculus with 13 samples.

Results

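The Groucho/TLE family of transcriptional corepressors was followed across single excitatory neurons of the mouse claustrum, a thin sheet of cells beside the cortex. Of the 23427 genes listed in the count tables, 6 rows belonged to the family (Tle1, Tle2, Tle3, Tle4, Tle6 and Aes, the last of which RefSeq now calls Tle5), and each was listed in both tables. The members were chosen by family with earlier results of these data known, and Tle3 and Tle4 were selected on their measured levels over groups of these cells. Of 1112 harvested cells, 1011 with at least 1 count of Snap25 (a synaptic protein of neurons) and of Slc17a7 (the vesicular glutamate transporter of excitatory neurons) were kept.

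The study harvested cells by hand from microdissected claustrum of 4 mature male C57BL/6 wild-type mice and sequenced them from their 3′ ends over 13 plates. A first animal, the blindly sampled mouse, received an rAAV2-retro virus carrying CAG-GFP in the anterior cingulate cortex to guide the dissection, and cells were taken without regard to label (3 plates, 238 kept cells). In projection mice 1, 2 and 3 (10 plates with 224, 220 and 329 kept cells), red retrobeads in the retrosplenial cortex (RSC) and green retrobeads in the lateral entorhinal cortex (LEC) marked neurons by their projection target. Retrobeads are fluorescent particles transported from axon endings to the soma, and a cell without a bead may still project to either target. The projection mice gave 247 RSC-projecting, 286 LEC-projecting and 240 unlabeled kept cells.

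TLE proteins do not bind DNA themselves. Transcription factors of several families, among them Hes, Runx, Tcf/Lef and homeodomain proteins, recruit them. Some of these factors, though not Tcf/Lef, do so through short peptides that dock on the carboxy-terminal WD-repeat domain. TLE proteins in turn bring histone deacetylases to the target gene. Tle1 to Tle4 are the full-length members, Tle6 is a diverged member best known from the oocyte, and Aes encodes only the amino-terminal part and can counteract the others. In the cortex Tle4 is a familiar marker of deep-layer corticothalamic neurons.

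Upstream sequences of the members whose levels differed most between cells are shown because they give the regulatory context of the genes compared below. The 4 windows each hold the 250 bases before the start site, written from 5′ to 3′ on the strand of the gene, from RefSeq in build GRCm38.p6. They lie at chr4:72200894-72201143 (Tle1, minus strand), chr10:81600901-81601150 (Tle6, minus strand), chr9:61372116-61372365 (Tle3, plus strand) and chr19:14598184-14598433 (Tle4, minus strand). Capitals mark matches to the N-box CACNAG and to the E-box CACGTG, which Hes and Hey factors are known to bind.
Tle1: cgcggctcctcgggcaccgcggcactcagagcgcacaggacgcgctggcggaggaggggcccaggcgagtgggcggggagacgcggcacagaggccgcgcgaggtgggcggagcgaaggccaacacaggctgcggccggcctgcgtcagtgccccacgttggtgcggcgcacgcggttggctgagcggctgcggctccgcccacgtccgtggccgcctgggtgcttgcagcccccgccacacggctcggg
Tle6: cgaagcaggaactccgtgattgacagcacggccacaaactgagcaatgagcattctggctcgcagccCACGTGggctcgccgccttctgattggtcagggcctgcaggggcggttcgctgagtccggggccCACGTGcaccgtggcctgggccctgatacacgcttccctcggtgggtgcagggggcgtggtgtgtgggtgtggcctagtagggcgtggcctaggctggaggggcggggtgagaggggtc
Tle3: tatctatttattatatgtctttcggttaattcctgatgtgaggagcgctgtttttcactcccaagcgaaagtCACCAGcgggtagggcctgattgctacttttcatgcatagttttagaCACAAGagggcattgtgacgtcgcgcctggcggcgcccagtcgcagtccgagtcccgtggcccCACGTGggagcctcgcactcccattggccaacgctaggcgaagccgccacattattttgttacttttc
Tle4: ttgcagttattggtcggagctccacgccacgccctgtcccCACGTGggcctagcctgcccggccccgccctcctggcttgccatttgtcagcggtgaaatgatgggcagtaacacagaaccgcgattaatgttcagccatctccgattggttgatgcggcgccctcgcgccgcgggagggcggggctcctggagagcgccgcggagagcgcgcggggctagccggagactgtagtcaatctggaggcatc

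Of the 6 members, 5 had an entry in this table. Matches were sought on both strands, and no match of 1 motif overlapped a match of another. The Tle3 window held 2 N-boxes, which begin at bases -178 and -131 relative to the start site, and the Tle2 window held 1, where 36.7% of 27025 first windows in the genome held at least 1. The E-box, which was added to the search after the windows had been read, began at -68 in the Tle3 window, at -210 in that of Tle4, and at -183 and -119 in that of Tle6, against 6.05% of all windows. The letters CTTTGA (Tcf/Lef, 14.1% of all windows), TGTGGT (Runx, 14.2%) and TGTTTAC (forkhead, 3.09%) were in none of the first windows of the 5 genes. The share of G and C was 77.2% for Tle1, 61.6% for Tle2, 52.4% for Tle3, 65.2% for Tle4 and 67.2% for Tle6, against a median of 52% for all windows. The start of the Tle4 window was not found in a GENCODE transcript, so its strand rests on the table alone. Tle5 (Aes), Tle2 and Tle6 are consecutive protein-coding genes on chromosome 10.

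Cells were divided into 3 classes that do not overlap, using genes outside the family. Synpr-high cells had Synpr (synaptoporin) at 200 CPM (counts scaled to a total of 1000000) or more, Slc30a3-high cells had Slc30a3 (the zinc transporter of synaptic vesicles) at 20 CPM or more, and Foxp2 cells had at least 1 count of Foxp2 (a forkhead factor of deep cortical layers), each without the other 2. This gave 410, 349 and 72 cells, while 142 of the other 180 cells passed none of these limits. Around the limits, the nearest values were 209 and 199.9 CPM for Synpr and 23.1 and 19.7 CPM for Slc30a3, and 21 cells had exactly 1 count of Foxp2. All 5 markers listed for the Synpr-high class (Gnb4, Lxn, Gfra1, Nr4a2, Slc17a6), all 5 for the Slc30a3-high class (Nnat, Spon1, Syn2, Ldb2, Col6a1) and all 6 for the Foxp2 class (Rprm, Syt6, Sla, Ctgf, Lsp1, Pcp4) were highest in their own class in each of the 4 mice. The study took Gfra1, Nnat and Spon1 from these same cells, so their order is a description. It also took Slc30a3, which sets the Slc30a3-high class, from these cells. Some markers were shared: Nnat was at 1013 CPM in pooled Slc30a3-high and 705 CPM in pooled Foxp2 cells. Pcp4 was at 1542 CPM in pooled Foxp2 and 355 CPM in pooled Slc30a3-high cells.

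Kept cells of the blindly sampled mouse had a median of 26023 counts, against 138535 to 154262 in the projection mice, so that a low gene was more easily missed in the former. Its depth cannot be told apart from the mouse and its plates, and no test set it against the other mice. Each label of a projection mouse was on a plate of its own, except for plate 12 of projection mouse 3, which held both RSC and LEC cells. Markers of astrocytes, microglia and endothelial cells summed to at most 4.18 CPM in any class of any mouse. Oligodendrocyte markers (4 of 4 found) summed to 23.3 to 330 CPM in Synpr-high, 57.1 to 893 in Slc30a3-high and 2.29 to 26.1 in Foxp2 cells, and inhibitory neuron markers (6 of 7 found) to 0 to 536, 203 to 1090 and 0 to 26.9 CPM. Npy carried most of the latter sums (301 CPM in pooled Synpr-high and 746 CPM in pooled Slc30a3-high cells), while the other 5 were higher in pooled Synpr-high than in Slc30a3-high cells, with Gad1 at 7.88 against 0.022 CPM, Gad2 at 5.49 against 0.065 CPM and Sst at 70.7 against 1.28 CPM. Their part in the results was not tested. Counts are taken as reads, and the reads of a sparse gene lie in few cells. Intervals of count ratios and floors of 3 counts take each read as independent, so they understate the uncertainty. Intervals of shares take each cell as independent and leave out the spread between mice.

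Aes was found in 975 of the 1011 cells (96.4%), while the full-length genes and Tle6 were sparse. Tle2 was found in 244 cells (24.1%), Tle3 in 232 (22.9%), Tle4 in 209 (20.7%), Tle1 in 127 (12.6%) and Tle6 in 101 (9.99%). Where a gene was found, the median was 13 counts for Aes, 6 for Tle4, 4 for Tle1, Tle3 and Tle6, and 2 for Tle2. The share of these cells that held a single count was 19.6% for Tle4 and 39.8% for Tle2. Of the cells, 360 (35.6%) had none of the 5 sparse genes, 442 (43.7%) had 1, and 209 (20.7%) had 2 or more.

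Tle1 and Tle6 were highest in Synpr-high cells. Tle1 was at 16.0 CPM in the blindly sampled mouse and at 8.32, 11.99 and 13.9 CPM in projection mice 1, 2 and 3 in this class, against 3.01, 2.79, 3.13 and 2.64 CPM in Slc30a3-high cells of the same mice. In Foxp2 cells it was at 0 in 3 mice and at 0.932 CPM (2 counts) in projection mouse 3. Synpr-high cells were above Slc30a3-high cells in each mouse without overlap. In the projection mice Foxp2 cells were below both, but in the blindly sampled mouse 3 counts in the few Foxp2 cells would come to 6.87 CPM, so their 0 gives no order against Slc30a3-high cells there.

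The mean level of Tle1 was 12.6 ± 3.28 CPM (SD, n = 4 mice) in Synpr-high and 2.89 ± 0.216 CPM in Slc30a3-high cells. The difference of 2.17 ± 0.65 on the log2 scale (SE) did not pass the threshold of 0.05 (adjusted p = 0.0879, edgeR quasi-likelihood test with Benjamini-Hochberg adjustment), although Synpr-high was higher in 4 of 4 mice. DESeq2 put it past the threshold (adjusted p = 0.000467), and the adjusted p reached 0.319 over the alternatives. Against Foxp2 cells, Tle1 was higher in Synpr-high cells, with 693 counts against 2 and a ratio of pooled CPM of 45.4 (exact 95% interval, 12.5 to 376), and this passed (edgeR adjusted p = 0.00121 and at most 0.0173 over the alternatives). The 131 counts in Slc30a3-high cells, found in 23 of 349 cells, gave a ratio of 10.8 to Foxp2 cells (2.92 to 89.7). This difference missed the threshold (edgeR adjusted p = 0.0538). The intervals of both ratios take each read as independent and are too narrow.

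Tle6 was likewise higher in Synpr-high than in Slc30a3-high cells of each mouse. In Synpr-high cells it was at 12.6, 9.43, 10.2 and 10.2 CPM (blindly sampled mouse and projection mice 1, 2 and 3), and in Slc30a3-high cells at 3.44, 2.19, 0.284 and 1.93 CPM. In Foxp2 cells no count was found in any mouse. Synpr-high cells did not overlap the others, with a mean of 10.6 ± 1.36 CPM (SD, n = 4). In the blindly sampled mouse and projection mouse 2, where 3 counts in Foxp2 cells would come to 6.87 and 1.37 CPM, the 0 gives no order against Slc30a3-high cells.

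With a floor of 3 counts over the Foxp2 class, Tle6 was 25.5-fold lower there than in Synpr-high cells and 3.94-fold lower than in Slc30a3-high cells. The 72 counts in Slc30a3-high cells came from 13 of 349 cells, so 3.94-fold is no lower limit of the difference. The differences from both classes passed the threshold in edgeR (adjusted p = 0.00247 and 0.0487). The second was lost in the fit blocked by mouse (adjusted p = 0.0857) and without any 1 of the 4 mice (0.0661 to 0.225). Tle6 was in 0 of 72 Foxp2 cells, which allows a share of up to 4.17% by a limit of 3 cells and of 4.99% by the exact 95% interval. Each is above the 3.72% of Slc30a3-high cells with Tle6. Synpr-high cells exceeded Slc30a3-high cells by 2.54 ± 0.78 on the log2 scale (SE) in 4 of 4 mice, and this missed the threshold (edgeR adjusted p = 0.114) but passed in DESeq2 (0.0139) and in counts thinned to 20000 per cell (0.00797).

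Among these tests of classes, 4.32% of 12404 genes were called for Synpr-high against Slc30a3-high, 11.3% for Foxp2 cells against Synpr-high and 4.93% for Foxp2 cells against Slc30a3-high, with Synpr, Slc30a3 and Foxp2 left out. The 4 members read from the fit (Tle1, Tle2, Tle6 and Aes) gave 0, 2 and 1 calls, each lower in Foxp2 cells. The median log2 difference of these 4 was 1.24, -3.83 and -2.59, against 0.00, -0.06 and -0.05 over all genes tested. With Tle6 at the floor of 3 counts, the medians of the comparisons with Foxp2 cells were -3.40 and -1.89.

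**Figure D1:**
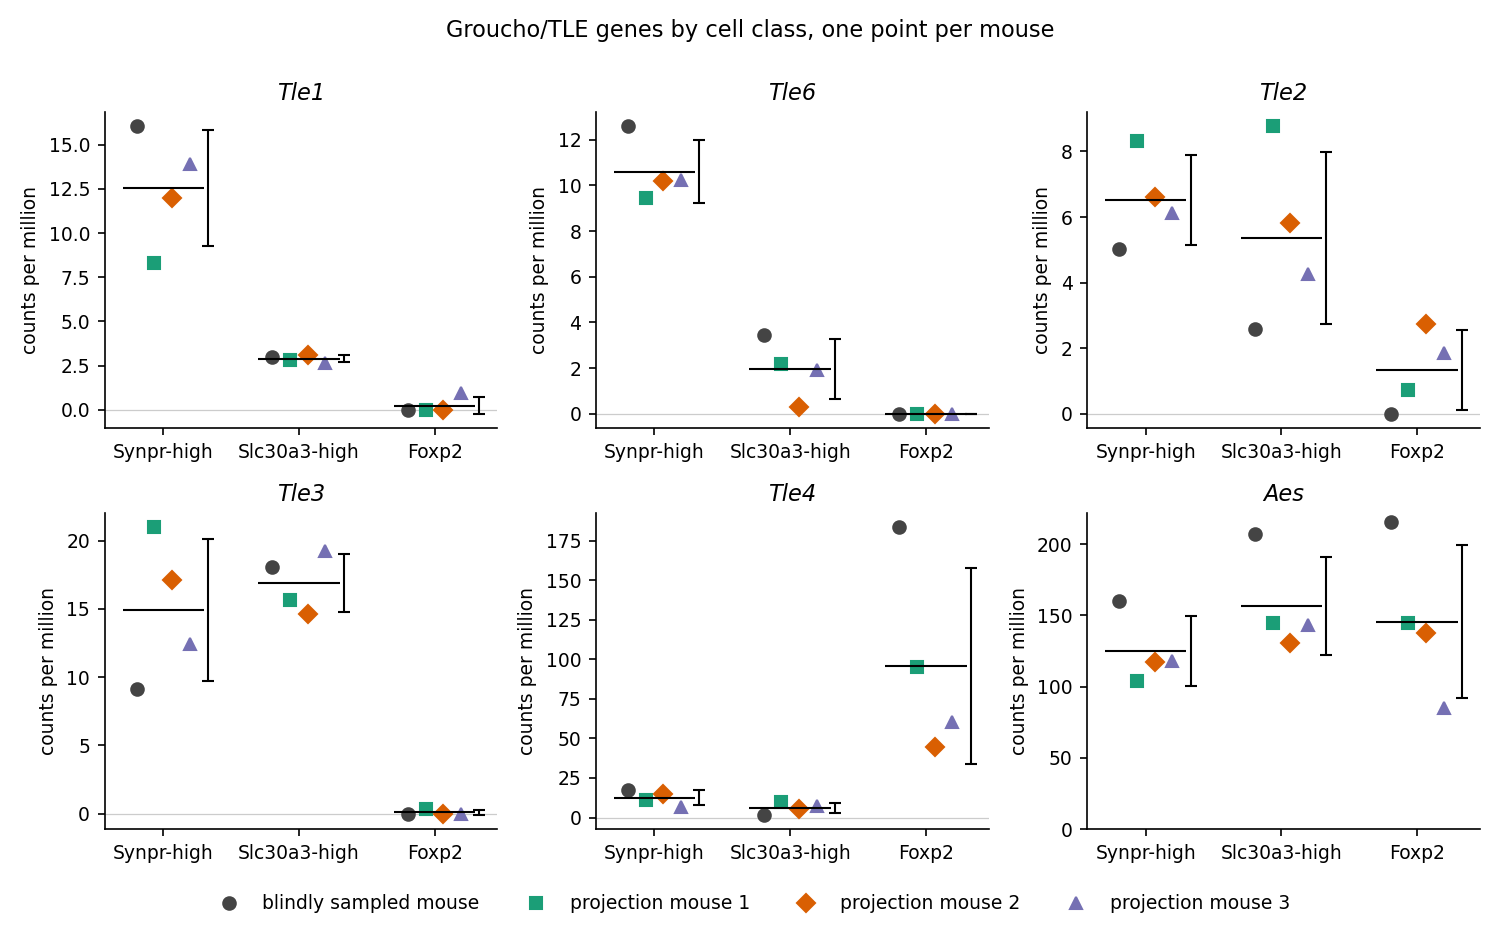
Level of each Groucho/TLE gene (CPM, linear axis with its own range in each panel) in Synpr-high, Slc30a3-high and Foxp2 cells. Each point is the summed cells of 1 mouse, the line is the mean and the bar is the SD over 4 mice. Tle4 is highest in Foxp2 cells in every mouse, Tle1, Tle3 and Tle6 are at or near 0 there, and Aes overlaps between the classes.

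Tle3 and Tle4, whose pattern over these cells was known when they were chosen, are described without a test. Tle4 was at 183, 95.4, 44.3 and 60.6 CPM in Foxp2 cells of the blindly sampled mouse and projection mice 1, 2 and 3. In Synpr-high cells it was at 17.3, 10.9, 14.8 and 6.64 CPM, and in Slc30a3-high cells at 1.72, 9.56, 5.18 and 7.02 CPM. The Foxp2 class was above both others in each mouse with no overlap. The fitted log2 difference of Foxp2 cells was 2.86 ± 0.51 from Synpr-high and 3.92 ± 0.53 from Slc30a3-high cells (SE), while the latter classes overlapped.

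Tle3 was lowest in Foxp2 cells. It was at 9.12, 21.0, 17.1 and 12.5 CPM in Synpr-high cells and at 18.0, 15.6, 14.6 and 19.2 CPM in Slc30a3-high cells of the same mice. In Foxp2 cells a single count in projection mouse 1 (0.357 CPM) was all that was found. The classes held 906 counts in Synpr-high and 783 in Slc30a3-high cells. Synpr-high and Slc30a3-high cells overlapped in Tle3, with each the higher in 2 of 4 mice.

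Tle2 and Aes differed less. Tle2 was at 5.03 to 8.32 CPM in Synpr-high, 2.58 to 8.76 CPM in Slc30a3-high and 0 to 2.74 CPM in Foxp2 cells, where 12 counts were found in all. Its difference of -2.13 ± 0.72 on the log2 scale (SE) between Foxp2 and Synpr-high cells had an adjusted p of 0.0770 in edgeR and of 0.0252 in DESeq2. Aes was at 104 to 160 CPM in Synpr-high, 131 to 208 in Slc30a3-high and 85.3 to 215 CPM in Foxp2 cells, and the classes overlapped. Within mice, Aes was lower in Synpr-high than in Slc30a3-high cells in 4 of 4. The 95% interval of its log2 difference was -0.81 to 0.27 between Synpr-high and Slc30a3-high cells and -0.40 to 0.69 between Foxp2 and Synpr-high cells (edgeR adjusted p = 0.880 and 0.821).

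In shares of cells, Tle4 was found in 55 of 72 Foxp2 cells (76.4%, exact 95% interval 64.9% to 85.6%), and in 61.1% to 87.5% by mouse. The same share was 19.5% (15.8% to 23.7%) in Synpr-high and 9.74% (6.84% to 13.3%) in Slc30a3-high cells. Tle3 was in 1 of 72 Foxp2 cells (1.39%), against 23.4% of Synpr-high and 28.7% of Slc30a3-high cells. Tle6 was found in 19.3% (15.6% to 23.4%) of Synpr-high and 3.72% (1.998% to 6.29%) of Slc30a3-high cells, and Tle1 in 19.8% and 6.59%.

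Thinning every cell to 20000 counts left out 84 cells, of which 67 were from the blindly sampled mouse. The share with Tle4 became 53.6% of 69 Foxp2, 10.8% of 380 Synpr-high and 6.23% of 321 Slc30a3-high cells, in the same order. Tle1, Tle2, Tle3 and Tle6 were then in none of the 69 Foxp2 cells. Tle6 was in 13.2% of thinned Synpr-high and 1.56% of Slc30a3-high cells.

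**Figure D2:**
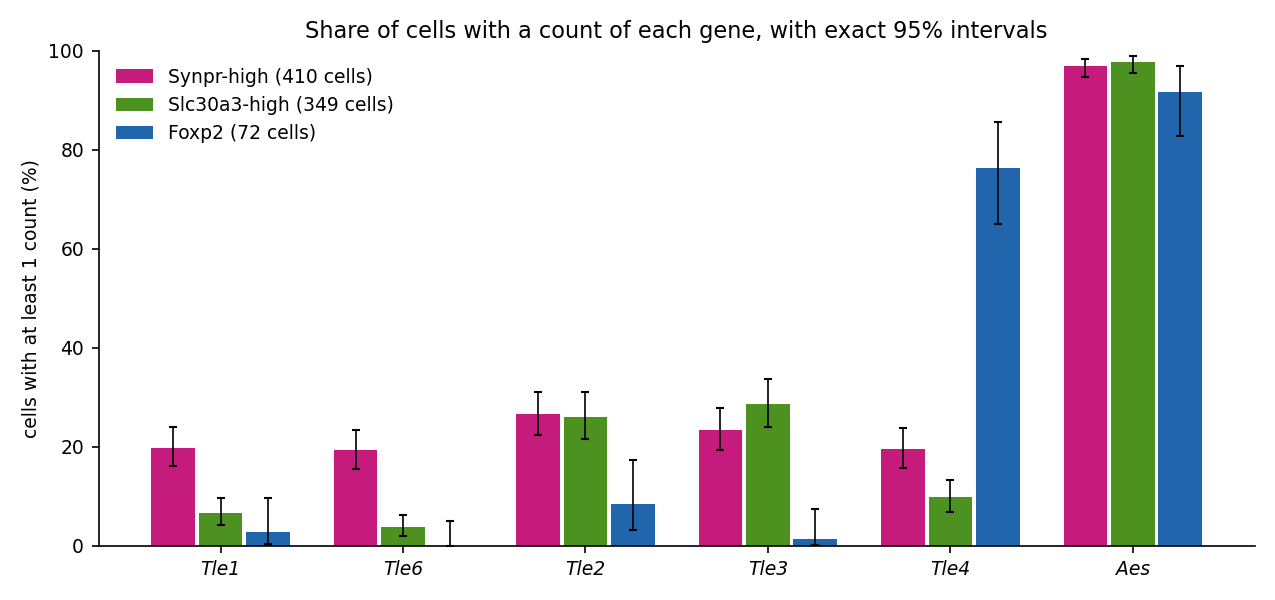
Share of cells (percent) with at least 1 count of each gene in the 410 Synpr-high, 349 Slc30a3-high and 72 Foxp2 cells. Bars are shares over all 4 mice and error bars are exact 95% (Clopper-Pearson) intervals. In Foxp2 cells Tle4 is at 76.4% and Tle3 at 1.39%, against 23.4% and 28.7% for Tle3 in the other classes, and the interval of Tle6 (0 of 72 cells) reaches 4.99%, above the 3.72% of Slc30a3-high cells.

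Few Foxp2 cells held more than 1 sparse member. Of the 72 cells, 49 (68.1%) had exactly 1 of the 5 sparse genes and 7 (9.72%) had 2 or more, against 29.5% with 2 or more in Synpr-high and 16.0% in Slc30a3-high cells. All 6 Foxp2 cells with Tle2, the cell with Tle3 and 1 of the 2 cells with Tle1 also had Tle4. Tle4 was in 1 of 8 cells that had Foxp2 with Synpr at 200 CPM or more (exact 95% interval 0.316% to 52.7%) and in 0 of 10 with Slc30a3 at 20 CPM or more (up to 30.8%). In these 2 sets, which are outside the class, Tle1 was in 3 of 8 and 2 of 10 cells, Tle3 in 0 and 4, and Tle6 in 2 and 1. Over all 90 cells with Foxp2, Tle1 was at 4.31 CPM, against 7.84 CPM in cells without. The near absence of Tle1 and Tle3 thus holds for the class and not for every cell with Foxp2. By the number of Foxp2 counts, Tle4 was in 9 of 21 cells with 1 count (42.9%, 21.8% to 66.0%) and in 47 of 69 cells with 2 or more (68.1%, 55.8% to 78.8%). Tle6 was in 3 of the former and in 0 of the latter.

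In pairs over all kept cells, Tle4 was found less often with Tle1, and Tle4 and Tle6 each less often with Tle3, in each of the 4 mice. At a minimum of 2 counts, Tle4 was less frequent with Tle1, and Tle6 with Tle3, in 3 mice and more frequent in 1, and after thinning Tle6 was less frequent with Tle3 in 2 mice and more frequent in 2. Cells are not replicates of a condition, so these shares carry no test. Tle1 and Tle4 shared 12 cells: Tle4 was in 9.45% of the 127 cells with Tle1 and in 22.3% of the others. By mouse the shares with and without Tle1 were 8.70% and 18.1% (blindly sampled mouse), 3.70% and 31.0%, 11.5% and 22.2%, and 11.8% and 19.4% (projection mice 1, 2 and 3). Within Synpr-high cells, which keep the class fixed, the share was 11.1% against 21.6% and again lower with Tle1 in 4 of 4 mice. It was 6.12% against 11.5% there after thinning, on 3 shared cells, and lower with Tle1 in 3 mice and higher in 1. Within Slc30a3-high cells, without thinning, Tle4 was in 8.70% of cells with Tle1 and in 9.82% of those without. Only 2 cells were shared there, and Tle4 was lower with Tle1 in 3 mice and higher in 1.

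For Tle3 and Tle4 the order turned within a class. Over all kept cells Tle4 was in 16.4% of cells with Tle3 and in 22.0% of those without (38 shared cells, lower in 4 of 4 mice). Within Synpr-high cells it was in 23.96% of cells with Tle3 and in 18.2% of those without, higher in 4 of 4 mice. After thinning, the latter shares were 10.2% and 10.9%, with 5 shared cells, and Tle4 was higher with Tle3 in 2 mice and lower in 2.

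Tle6 was in 6.47% of cells with Tle3 and in 11.04% of those without (15 shared cells), and in 11.5% and 21.7% within Synpr-high cells, lower in 4 of 4 mice in both. After thinning it was in 5.74% and 6.21% over all cells and in 8.16% and 13.9% within Synpr-high cells, on 4 shared cells in the latter. No other pair of the 5 sparse genes had the same order in all 4 mice over all kept cells. The largest number of shared cells was 70, for Tle2 and Tle3. Pairs share the library and depth of a cell, and a deeper cell is more likely to show both genes.

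**Figure D3:**
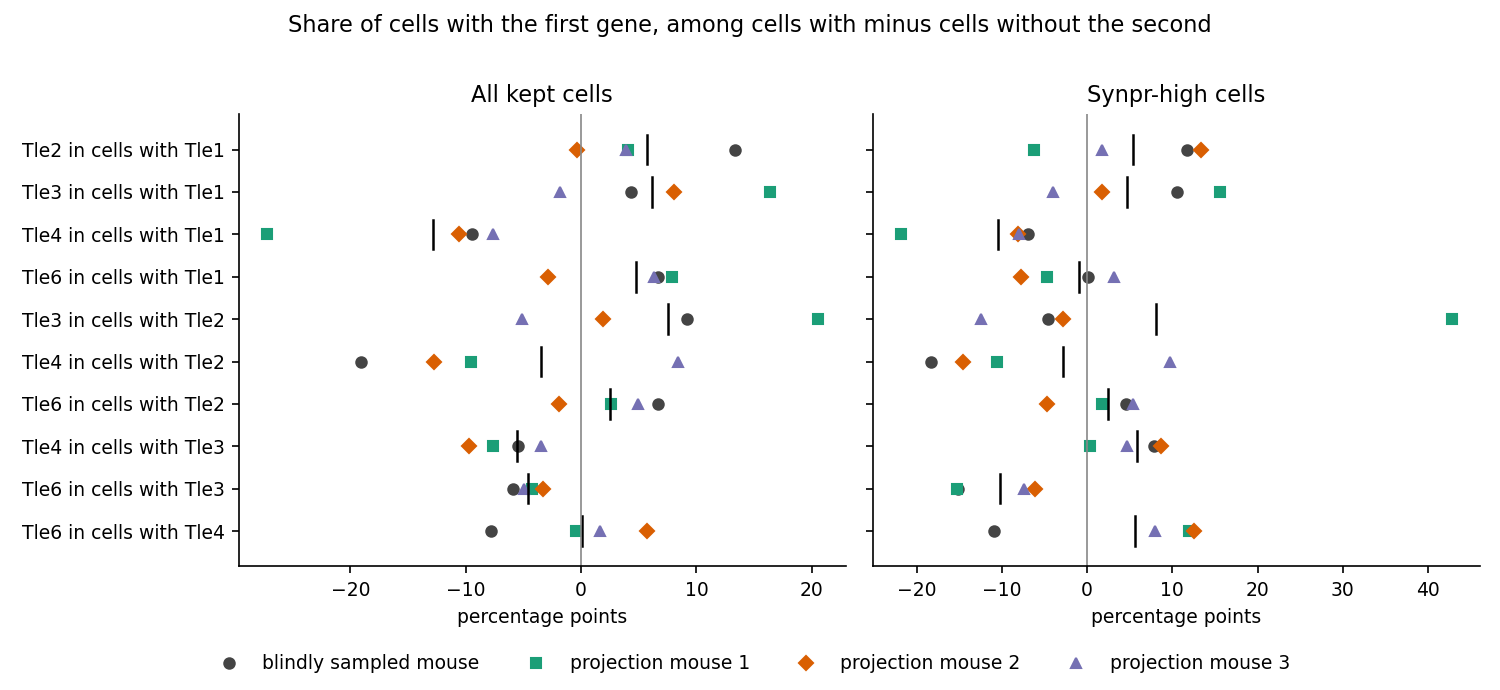
Difference in the share of cells (percentage points) with the first gene between cells with and cells without the second, for the 10 pairs of sparse genes, in all 1011 kept cells (left) and in the 410 Synpr-high cells (right). Each point is 1 mouse and the short vertical line is the value over all cells. Tle4 lies below 0 with Tle1 in all 4 mice in both panels, whereas Tle4 with Tle3 lies below 0 on the left and above 0 on the right, all without thinning.

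The retrograde labels use no measured value, and all 6 members were tested between them. Tle3 and Tle4 were selected on their levels over groups of these cells, and the labels differ in class. Their p between labels is therefore not independent of that choice. Tle1 was higher in RSC-projecting than in LEC-projecting cells. It was at 9.83, 7.23 and 16.2 CPM in RSC cells of projection mice 1, 2 and 3, and at 1.51, 1.72 and 3.35 CPM in LEC cells. The groups did not overlap, and the difference was 5.13-fold, or 2.36 ± 0.48 on the log2 scale (SE), with an adjusted p of 0.0211 in edgeR (higher in 3 of 3 mice). Tle1 was the only 1 of the 6 members called, where 3.95% of 13976 genes were.

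This call rested on all 3 mice. Without any 1 of them the adjusted p was 0.125 to 0.155 at a log2 difference of 2.24 to 2.44, and in thinned counts it was 0.198 at 1.37. On plate 12, where both labels were processed together, Tle1 was at 13.01 CPM in 34 RSC cells and 3.81 CPM in 44 LEC cells, against 18.0 and 3.01 CPM on the other plates of that mouse. The shares of cells with Tle1 on plate 12 were 17.6% and 18.2% and give no such order.

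The labels differ in class. Of the 247 RSC cells, 201 were Synpr-high and 22 Slc30a3-high, and of the 286 LEC cells, 43 and 179. Within Synpr-high cells Tle1 was at 8.89, 7.33 and 14.8 CPM in RSC and at 2.67, 4.03 and 10.4 CPM in LEC cells of projection mice 1, 2 and 3. RSC was higher in 3 of 3 mice, the groups overlapped, and the log2 difference of 0.84 had a 95% interval of -1.04 to 2.72 (edgeR adjusted p = 1). Without plate 12 it was -0.10. Within Slc30a3-high cells it was -0.24, with an interval of -2.39 to 1.92 (edgeR adjusted p = 0.957), and 2.70 with the Synpr limit at 400 CPM.

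The other members were not called between RSC and LEC in edgeR or DESeq2. Tle3 was lower in RSC cells, at 16.8, 9.35 and 12.3 CPM against 25.4, 19.0 and 18.3 CPM in LEC cells of the same mice, without overlap (log2 difference -0.67 ± 0.38, SE, edgeR adjusted p = 0.449). Tle6 was at 4.50, 7.23 and 9.97 CPM in RSC and at 4.67, 0.572 and 2.01 CPM in LEC cells, with RSC higher in 2 of 3 mice (1.61 ± 0.67, edgeR adjusted p = 0.256, and 0.0382 in thinned counts). In projection mouse 3 all Tle6 counts of LEC cells came from plate 12 (42 counts in 6 of 44 cells), and 0 of 86 LEC cells on the other plate had any, which allows a share of up to 3.49% by a limit of 3 cells and of 4.20% by the exact 95% interval. Tle2, Tle4 and Aes differed by 0.32, 0.64 and -0.37 on the log2 scale, with adjusted p of 0.821, 0.673 and 0.457 in edgeR. Aes was lower in RSC cells in 3 of 3 mice and Tle2 and Tle4 were higher in 2 of 3.

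**Figure D4:**
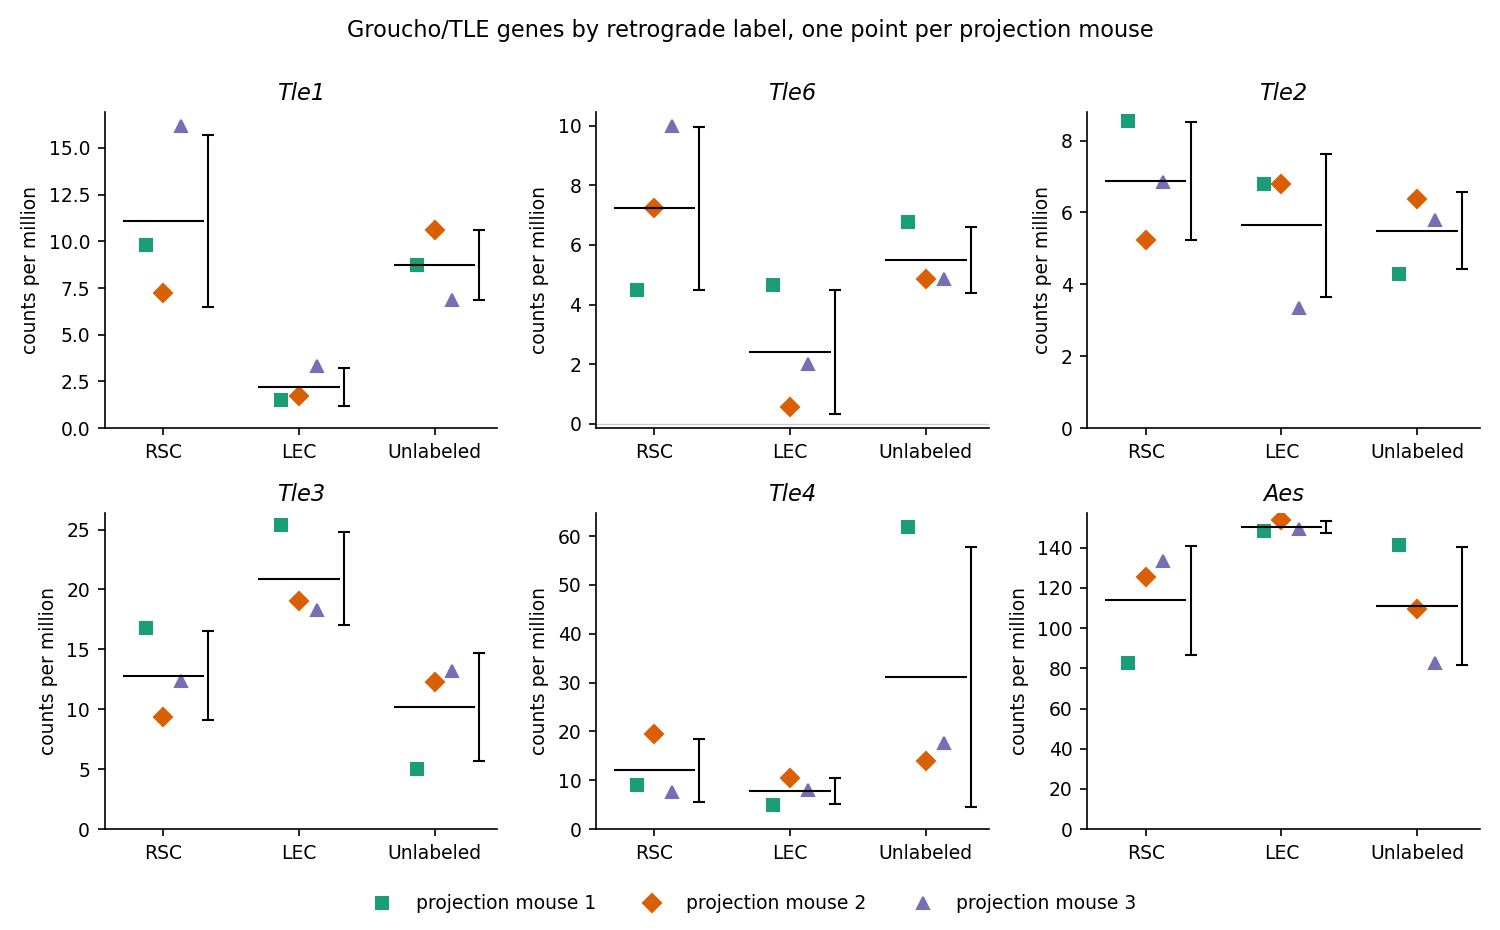
Level of each Groucho/TLE gene (CPM, linear axis with its own range in each panel) in RSC-projecting, LEC-projecting and unlabeled cells of the 3 projection mice. Each point is the summed cells of 1 mouse, the line is the mean and the bar is the SD over 3 mice. For Tle1, the RSC cells (7.23 to 16.2) lie above the LEC cells (1.51 to 3.35) in each mouse.

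Tle4 was at 61.8, 14.0 and 17.6 CPM in unlabeled cells of the projection mice, at 9.07, 19.4 and 7.70 CPM in RSC and at 5.02, 10.4 and 8.05 CPM in LEC cells. Unlabeled cells were the highest in projection mice 1 and 3 and RSC cells in projection mouse 2. The unlabeled cells held 53 Foxp2 cells, of which 24, 13 and 16 came from projection mice 1, 2 and 3, and the RSC and LEC cells held 3 and 4. With the Foxp2 class left out, a choice made after the data had been seen, Tle4 was at 45.2, 9.24 and 9.65 CPM in unlabeled, 9.07, 18.3 and 7.70 CPM in RSC and 5.13, 10.4 and 8.11 CPM in LEC cells. Unlabeled cells were then again the highest in projection mice 1 and 3, and the lowest in projection mouse 2.

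In edgeR no member was called between labeled and unlabeled cells, while DESeq2 called Tle4 and Tle1 for LEC against unlabeled cells. The call of Tle4 is not independent of its selection on these cells. Tle4 was lower in LEC than in unlabeled cells in 3 of 3 mice (log2 difference -1.99 ± 0.58, SE, edgeR adjusted p = 0.424, DESeq2 0.0308), and its difference between RSC and unlabeled cells was -1.35 ± 0.57 (edgeR adjusted p = 0.328). Tle1 was lower in LEC than in unlabeled cells in 3 of 3 mice as well (-1.99 ± 0.47, edgeR adjusted p = 0.322, DESeq2 0.0308). Its level in unlabeled cells, 8.71, 10.6 and 6.86 CPM, overlapped that of RSC cells. For RSC against unlabeled cells 1.63% of 13976 genes were called. For LEC against unlabeled cells edgeR called 0% of them, where 1079 genes had an unadjusted p under 0.05 and DESeq2 called 114, and both comparisons share the unlabeled cells.

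Within classes no member was called between RSC and LEC, and no member was called for the interaction of label and class in edgeR. The interaction had 7 calls among 12248 genes, so nothing about the members is read from their lack of a call. Of 12248 genes, 0% were called within Synpr-high cells (403 with an unadjusted p under 0.05, and 7 in DESeq2) and 0.245% within Slc30a3-high cells, where the RSC sums held 9, 7 and 6 cells. Tle4 was in none of these 22 RSC cells, which allows a share of up to 13.6% by a limit of 3 cells and of 15.4% by the exact 95% interval, and was at 9.81, 5.48 and 5.81 CPM in LEC cells of the class (edgeR adjusted p = 0.166, DESeq2 0.0311). Tle3 within Synpr-high cells ranged from 0 to 36.0 CPM between the LEC sums of the 3 mice, which held 18, 10 and 15 cells.

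Genes listed as partners or modulators of TLE proteins were read from the same fits. Of 25 transcription factors listed as partners, 21 were in the tables and 7 passed the filter on low counts in the classes. Between Synpr-high and Slc30a3-high cells, 1 was higher and 2 were lower in edgeR, where 4.32% of all genes were called. Between Foxp2 and Synpr-high cells 2 were higher (11.3% of all genes called), and between Foxp2 and Slc30a3-high cells 1 was higher (4.93%). None was called in the 3 comparisons of labels (8 tested). Of all genes, 3.95% were called there for RSC against LEC, 1.63% for RSC against unlabeled and 0% for LEC against unlabeled cells. The median log2 difference of the list was -0.32, 1.12 and -0.67 in the 3 class comparisons, against 0.00, -0.06 and -0.05 over all genes, and with 7 genes tested nothing is read from it.

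Fezf2, a zinc-finger factor of deep-layer projection neurons that acts with TLE4, was, like Tle4, highest in Foxp2 cells of every mouse. It was at 27.5, 91.8, 127 and 110 CPM in Foxp2 cells of the blindly sampled mouse and projection mice 1, 2 and 3. In Slc30a3-high cells it was at 3.01, 26.1, 18.8 and 20.6 CPM, and in Synpr-high cells at 0 to 0.761 CPM. Foxp2 cells exceeded Slc30a3-high cells in 4 of 4 mice by 2.38 ± 0.61 on the log2 scale (edgeR adjusted p = 0.0372, and 0.0663, 0.224 and 0.202 without projection mouse 1, 2 or 3) and Synpr-high cells by 8.17 ± 0.85 (1.9e-05). Slc30a3-high cells exceeded Synpr-high cells in 4 of 4 mice (edgeR adjusted p = 0.00050). Tle4, by contrast, was lower in Slc30a3-high than in Synpr-high cells in 3 of 4 mice.

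Of the Hes and Hey factors on the partner list, Hes5, Hey2 and Hes6 were each called in 1 class comparison. Hes5 had no count in Synpr-high cells of any mouse and was at 4.73, 4.58, 2.49 and 0.305 CPM in Slc30a3-high cells (edgeR adjusted p = 0.0265, and 0.0916 without the blindly sampled mouse). Hey2 was at 3.46, 1.99, 2.33 and 4.02 CPM in Synpr-high cells, and 1 count was found in all Slc30a3-high cells (edgeR adjusted p = 0.0494). The call of Hey2 held in 5 of 10 alternatives, and the adjusted p was 0.274 without projection mouse 1 and 0.210 without projection mouse 2. Outside Slc30a3-high cells, Hes5 had only 5 counts, in Foxp2 cells of projection mouse 2, and it was tested in 8 alternatives. Hes5 and Hey2 passed the filter on low counts mainly through the class where they were high. Their calls are therefore not independent of that level and are a description. Hes6, which opposes Hes1, was at 75.6, 36.4, 60.3 and 25.6 CPM in Foxp2 cells and at 8.32 to 22.5 CPM in Synpr-high cells (1.80 ± 0.47 on the log2 scale, edgeR adjusted p = 0.0220). This call was lost without the blindly sampled mouse or projection mouse 1 or 3 (adjusted p = 0.117, 0.0570 and 0.0668) and in thinned counts (0.0595). In Slc30a3-high cells Hes6 was at 9.66 to 27.3 CPM, which overlapped both other classes.

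Of 8 genes listed as modulators of TLE proteins, all passed the filter and Ctnnb1 alone was called between classes. The calls were for Synpr-high against Slc30a3-high and for Foxp2 against Synpr-high cells, where 4.32% and 11.3% of all genes were called. Ctnnb1 encodes beta-catenin, which displaces TLE proteins from Tcf/Lef factors. It was at 239 to 302 CPM in Synpr-high, 144 to 185 CPM in Slc30a3-high and 144 to 159 CPM in Foxp2 cells. Synpr-high cells were higher in 4 of 4 mice in both comparisons. The log2 difference was 0.73 ± 0.14 between Synpr-high and Slc30a3-high cells (edgeR adjusted p = 0.00629, and 0.114, 0.0580 and 0.0595 without projection mouse 1, 2 or 3) and -0.90 ± 0.14 between Foxp2 and Synpr-high cells (edgeR adjusted p = 0.00079). None of the histone deacetylases or kinases on the list was called, and the list had no call between labels. Of all genes, 3.95% were called for RSC against LEC, 1.63% for RSC against unlabeled and 0% for LEC against unlabeled cells. With 8 genes tested, nothing about the list is read from these numbers of calls.

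**Figure D5:**
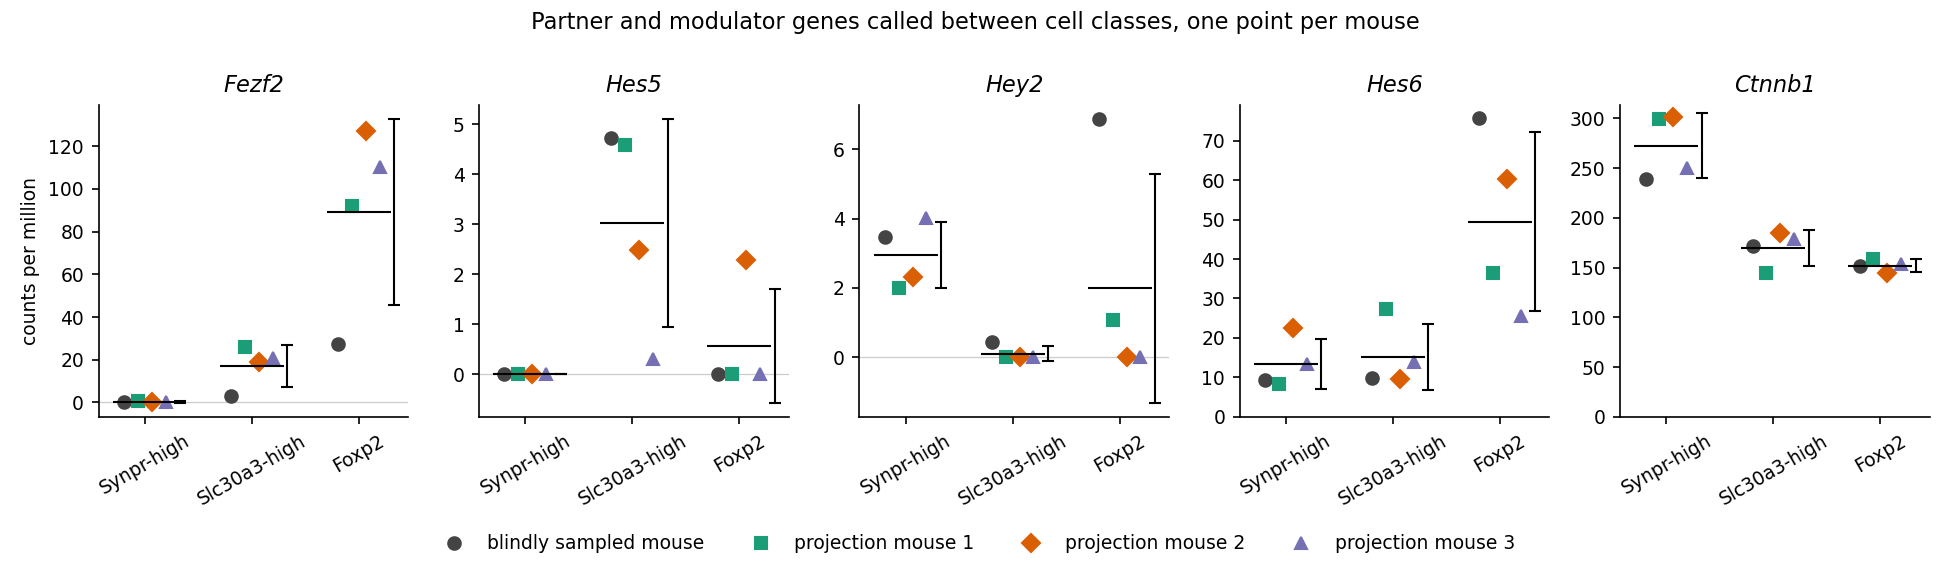
Level (CPM, linear axis with its own range in each panel) of Fezf2, Hes5, Hey2 and Hes6, listed as partners, and of Ctnnb1, listed as a modulator, in the 3 classes. Each point is the summed cells of 1 mouse, the line is the mean and the bar is the SD over 4 mice. Fezf2 is highest in Foxp2 cells in every mouse and near 0 in Synpr-high cells.

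The genes most like each member were taken by Pearson correlation of log2 CPM over 12 sums (4 mice by 3 classes), which share libraries and classes, so the values are a description. They were Lypd6 (0.98), Pwwp2b (0.97) and Smarca2 (0.97) for Tle1, and Efemp1 (0.98), Mxra7 (0.98) and Glipr1 (0.98) for Tle6. For Tle3 they were Slc7a11 (0.99), Cntn3 (0.99) and Ptprk (0.99), for Tle4 Copa (0.92), Chrna4 (0.92) and Arglu1 (0.91), for Tle2 Gm2694 (0.98), Dact2 (0.97) and 6330403K07Rik (0.97), and for Aes Gm7936 (0.94), Eif3m (0.93) and Gm5601 (0.92). Within the family Tle1 and Tle6 were the most alike (0.92), and Tle3 and Tle4 the least (-0.87).

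Reads of the members could be shared with few other genes. In GENCODE transcripts of build GRCm38, no 50-base word in the last 1000 bases of a member was in another member. Of the 951 words of each, 23 of Tle6 were also in Gm9136 and 1 of Tle2 was in Lyrm7. Exons of Tle1 overlap the antisense gene Gm11250 by 247 bases and those of Tle2 overlap Gm15917 by 98 bases, and RefSeq gives Tle2 and Tle6 spans that overlap by 1678 bases. The use of strand in counting is not stated, so reads in these overlaps cannot be told apart.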

How the data were processed

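The authors tagged reads to cell barcodes and UMIs, aligned them with STAR and deposited counts per gene and cell, not normalized, with tables of animal and label. The Methods give totals in reads, so a count was taken as a read. The processing notes name build NCBIM37 and Seurat, and the STAR version, annotation and use of strand are not given in the sources used here. Spike-ins were left out.

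CPM are counts scaled to a total of 1000000, per cell or per sum of the cells of 1 mouse and group. Sums of at least 5 cells were tested in edgeR 4.0.16 (quasi-likelihood F test with TMM and filterByExpr, p adjusted over all genes by Benjamini-Hochberg, threshold 0.05) in R 4.3.3, after a test on simulated data. DESeq2 1.42.0 was the main alternative. Shares have exact Clopper-Pearson 95% intervals. Mice are the replicates, and plates of a mouse are not.

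Pairing of sums rests on the animal they share. The main fits had no term for the mouse, so their p-values are not from paired tests, and the mouse as a block was an alternative. Deviations from group means correlated across genes, between sums of 1 mouse, by 0.183 (median over 12 pairs of class sums, 0.0679 to 0.658), against -0.0380 for other pairs, and by 0.0654 over 9 pairs of label sums (-0.0643 to 0.152), against -0.0415.

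The members and lists were chosen with earlier results of these data known. Genes outside the family are named by rule: the class genes, listed partners whose call passed (up to 5 a comparison by adjusted p), and the 3 genes most correlated with each member. Settings without plate 12 and without Foxp2 cells, the E-box and the pairs singled out were chosen after seeing the data. Python 3 scripts used numpy and pandas. Clusters, in situ data and other parts of the study were not analysed here.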

Additional observations from a re-analysis of the deposited data

Results flagged for a closer look

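Of 29 sets of 4 mice examined, 3 had a mouse apart from the others by Dixon's test, where chance flags about 1 in 20. That rate does not hold for 2 of the 3, in which 3 mice were at 0 and any count in the remaining mouse would be flagged. Tle1 in Foxp2 cells was at 0.932 CPM in projection mouse 3 and at 0 in the others, and Tle3 in Foxp2 cells was at 0.357 CPM in projection mouse 1 and at 0 in the others, which are 2 counts and 1 count. Aes over all kept cells was at 183 CPM in the blindly sampled mouse, above the 3 projection mice, and this mouse had the lowest median total per cell.

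Cells outside the comparisons also held family members. Tle4 was in 39 of the 142 cells that passed none of the 3 class limits (27.5%, exact 95% interval 20.3% to 35.6%), at 33.6 CPM, and Tle3 was in 25 of them (17.6%). Aes was in 25 of the 101 cells removed for lacking Snap25 or Slc17a7 (24.8%), at 138 CPM.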

How the results depend on the processing

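Of 510 comparisons with an alternative, 454 stayed the same. They cover each member's log2 difference and the number of members called for the interaction of label and class. For tested differences, the same means the same direction and side of the threshold. For those given without a test, it means a move within the spread between mice. Of the tested differences, 13 lost and 12 gained a call and 17 changed sign. Of those given without a test, 14 moved by more than that spread. A change of sign was not counted for the latter, and Tle3 ranged from -0.37 to 0.081 between Synpr-high and Slc30a3-high cells. DESeq2 called 1145, 661 and 114 genes for RSC against LEC, RSC against unlabeled and LEC against unlabeled (main counts 552, 228 and 0), 897 for Synpr-high against Slc30a3-high (536), 1113 for Foxp2 against Slc30a3-high (612), and 7 and 425 for RSC against LEC within Synpr-high and Slc30a3-high (0 and 30). Without plate 12 the counts were 120 for RSC against unlabeled and 14 within Slc30a3-high. Thinning gave 479 for RSC against unlabeled, 67 for LEC against unlabeled, and 1 and 72 within the 2 classes. No filter gave 9 for LEC against unlabeled and 2 and 97 within the classes, and a Synpr limit of 400 CPM gave 17 within Slc30a3-high. With the mouse as a replicate block 2 genes were called for LEC against unlabeled and 18 within Slc30a3-high. The block ended the call of Tle6 between Foxp2 and Slc30a3-high cells and changed no other member's call, and it turned Tle2 for LEC against unlabeled to -0.017 on the log2 scale. Leaving out 1 mouse gave 59 to 391 genes for RSC against LEC, 8 to 47 for RSC against unlabeled, 0 to 2 for LEC against unlabeled, 205 to 506 for Synpr-high against Slc30a3-high, 672 to 1422 and 275 to 618 for Foxp2 cells against Synpr-high and Slc30a3-high, and 0 to 1 and 1 to 7 within the 2 classes. The cause was not tested.

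For members not called, leaving out 1 mouse spread the log2 difference over 0 for RSC against unlabeled (Tle1 -0.16 to 0.78, Tle3 -0.20 to 0.69, Aes -0.25 to 0.45), LEC against unlabeled (Tle2 -0.28 to 0.32) and Foxp2 against Slc30a3-high (Aes -0.19 to 0.030), for RSC against LEC within Synpr-high (Tle2 -0.10 to 0.51, Tle4 -1.13 to 1.24) and within Slc30a3-high (Tle1 -1.03 to 0.14). Thinning turned Aes to -0.23 for Foxp2 against Synpr-high and to 0.12 for RSC against LEC within Slc30a3-high. Without plate 12, RSC against LEC was -0.10 for Tle1 within Synpr-high, and 0.37 for Tle1 and 0.10 for Tle2 within Slc30a3-high, where Tle1 was 2.70 with the Synpr limit at 400 CPM. Tle4 was in 53.6% of Foxp2 cells after thinning and 62.5% at a minimum of 2 counts, and Tle6 in 13.2% and 13.7% of Synpr-high cells, both lower by construction. Without 1 mouse these were 73.2% to 81.5% and 18.5% to 20.7%. Low counts limit Tle1, Tle3 and Tle6 in Foxp2 cells, where 0 to 2 counts were found per mouse. Where 2 mice remain, the spread is pooled over all groups.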
